A study of Homo sapiens with 2 samples.

Results

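PKM, which encodes pyruvate kinase, and 9 further genes of glycolysis and lactate formation were examined in the splicing event tables of a study of HEK293T cells. The members were chosen by gene symbol, as every event listed under PKM, PFKM, PFKP, PFKL, LDHA, LDHB, ENO1, ALDOA, GAPDH or PGK1. These 10 genes, of 12254 genes with an event, held 237 of the 159490 listed events. HEK293T is a line of human embryonic kidney cells that carries the SV40 large T antigen. One group was a control library from cells with no treatment, and the other was a library from cells that received 300 µg/mL amiloride for 6 h before RNA extraction. Amiloride is a diuretic that blocks sodium transport. There was 1 library per condition, made from polyadenylated RNA, and the comparison asked how the drug changes splicing. The read counts and inclusion levels in the tables stand in columns that carry sample numbers and not the names of the libraries, so they were not used here, and neither were the authors' columns on the difference between the libraries. What follows therefore describes which events were listed, which exons and junctions they join and what sequence lies there; it gives no level in either condition, no effect of amiloride and no depth. For the same reason the cell line was not checked against marker genes.

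Glycolysis turns glucose into pyruvate through a fixed chain of enzymes, and lactate dehydrogenase turns pyruvate into lactate. Pyruvate kinase, the enzyme of the last step, exists in a form called PKM1 and a form called PKM2, which differ by the use of a pair of mutually exclusive exons. PKM2 is the form that proliferating cells are known for, and PKM1 that of muscle and brain.

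The PKM pair was listed as a mutually exclusive exon event, in which a transcript takes either of a pair of exons between a shared upstream and a shared downstream exon. PKM lies on the minus strand at chr15:72491370-72524160 (GRCh37). In the order of transcription, exon 9 (the PKM1 exon) lay at chr15:72495363-72495529 and exon 10 (the PKM2 exon) at chr15:72494795-72494961. The listed event joined either exon to exon 8, chr15:72499069-72499221, and exon 11, chr15:72492815-72492996. Both exons were coding and 167 bases long, which leaves a remainder of 2 on division by 3, and both began at the same place in the codon. Exchange of one for the other keeps the reading frame, while loss of both shifts it. The exons are shown because the event turns on them, each 5' to 3' on the minus strand, with the bases that differ between them in capitals.
PKM exon 9, chr15:72495363-72495529: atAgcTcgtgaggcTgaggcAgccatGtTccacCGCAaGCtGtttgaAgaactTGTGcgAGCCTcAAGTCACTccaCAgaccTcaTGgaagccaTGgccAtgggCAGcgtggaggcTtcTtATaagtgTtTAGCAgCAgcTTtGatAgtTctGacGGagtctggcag
PKM exon 10, chr15:72494795-72494961: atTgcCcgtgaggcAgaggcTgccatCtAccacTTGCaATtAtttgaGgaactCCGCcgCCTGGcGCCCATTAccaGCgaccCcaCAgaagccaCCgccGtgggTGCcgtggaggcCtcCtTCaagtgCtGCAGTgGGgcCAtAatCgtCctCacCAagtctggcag
Aligned without gaps, the exons shared 105 of 167 bases (62.9%) and differed at 62. Of the differing bases, 14 were at the first codon position, 15 at the second and 33 at the third. The longest run without a difference was 10 bases.

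Of 25 annotated PKM transcripts, 5 held exon 9, 5 held exon 10 and 0 held both. None of the 25 joined exon 8 directly to exon 11 (0 transcripts). That junction was nevertheless the skipping form of 2 listed events, because each exon of the pair was also listed on its own as a skipped exon between exons 8 and 11. The intron between exons 9 and 10 was 401 bases long, against 3539 bases between exons 8 and 9 and 1798 bases between exons 10 and 11.

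The splice sites of both exons were scored against annotated sites, by adding, over the positions of a site, the log2 of each base's frequency there relative to equal frequencies. A higher score means that the site holds bases that are more common at annotated sites. The highest possible score has the commonest base at every position. The windows that were scored are shown 5' to 3' on the minus strand (GRCh37), with exon bases in capitals and intron bases in lower case.
3' splice site of exon 9, beside chr15:72495363-72495529: tcttcccctaaaccttacagATA
3' splice site of exon 10, beside chr15:72494795-72494961: gacggatgttgctcccctagATT
5' splice site of exon 9, beside chr15:72495363-72495529: CAGgtaggg
5' splice site of exon 10, beside chr15:72494795-72494961: CAGgtagga
At the 5' splice site the scores were 8.95 for exon 9 and 8.92 for exon 10, at percentiles 67.4 and 66.8 of the 67154 distinct skipped exons listed for all genes. Their order at this site was reversed, at percentiles 55.3 for exon 9 and 63.4 for exon 10, when the base frequencies of the scored windows replaced equal frequencies as the background. At the 3' splice site they were apart, with 8.73 for exon 9, at percentile 44.3, and 3.98 for exon 10, at percentile 6.54. Exon 10 had the lower 3' score under every setting tried. Of the 20 intron bases before the exon, 14 were pyrimidines at exon 9 and 11 at exon 10, where the median listed exon had 14. Among the neighbours, exon 8 scored 9.73 and 9.25 at its 5' and 3' sites, and exon 11 scored 6.07 and 8.57.

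**Figure D1:**
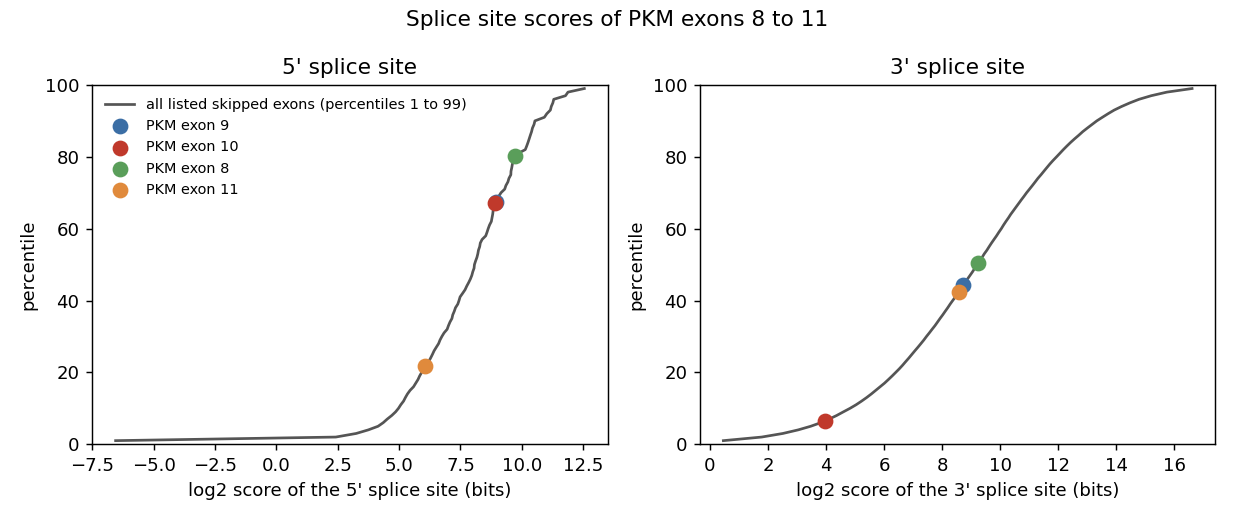
Splice site scores of PKM exons 8 to 11 (points) on the cumulative distribution over all listed skipped exons (line); x axis, log2 score in bits, y axis, percentile. At the 5' site exons 9 and 10 overlie each other at 8.95 and 8.92, and at the 3' site exon 10 stands lowest at 3.98.

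Splicing of the pair is known to be controlled by proteins that bind short pyrimidine-rich elements or elements with a run of G in the introns beside exon 9. The 50 intron bases on either side of each exon are shown, 5' to 3' on the minus strand (GRCh37), with motif matches in capitals. The motifs were TCTT, a longer pyrimidine run spelled CTCTCT, and, as the element with a run of G, TAGGG. They were searched on the transcribed strand only, were allowed to overlap and were chosen after the tables had been seen.
Before exon 9, chr15:72495530-72495579: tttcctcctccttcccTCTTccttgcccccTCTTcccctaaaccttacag
After exon 9, chr15:72495313-72495362: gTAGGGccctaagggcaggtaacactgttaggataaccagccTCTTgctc
Before exon 10, chr15:72494962-72495011: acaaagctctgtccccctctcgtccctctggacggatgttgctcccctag
After exon 10, chr15:72494745-72494794: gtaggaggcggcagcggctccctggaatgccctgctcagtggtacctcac
TCTT occurred 2 times before exon 9 and 1 time after it, and 0 times on either side of exon 10. It was present before 49.2% and after 26.7% of all listed skipped exons. TAGGG occurred 1 time after exon 9 and 0 times in the other windows, and was present after 4.36% and before 1.25% of all listed exons. The match after exon 9 lies within the 5' splice site window scored above. CTCTCT had 0 matches in these windows, and was found before 6.46% and after 1.9% of all listed exons. The window before exon 10 does hold runs of pyrimidines, which match neither TCTT nor CTCTCT. A match describes these letters and does not show that a protein binds there.

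The other PKM events lay beside the pair, at exons 8 and 11, or in the stretch from exon 1 to exon 3. A further mutually exclusive event paired exon 8 with exon 10, between exons 7 and 11, and 5 annotated transcripts held both of its exons. Exon 11 was listed as skipped by a junction from exon 8 to exon 12, and exon 8 by a junction from exon 7 to exon 10. The junction from exon 7 to exon 10 was the only one of the 110 skipping junctions of the 10 genes without GT and AG at the intron ends: its intron began with GC. Exon 3, of 92 bases, was listed with a junction from exon 2 to exon 4 that the annotation holds. An exon of 117 bases at chr15:72513509-72513625, between exons 1 and 2, was listed 2 times.

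PKM also held 4 of the 5 alternative 5' splice site events of the 10 genes, all at its first exon. Their long forms added 4, 216 or 220 bases, the last in 2 events that differed in the partner exon, chr15:72511285-72511451 or chr15:72513509-72513625. Every junction of these 4 events was annotated (2 of 2 in each), and each added stretch overlapped a coding segment of at least 1 annotated transcript. The site at the end of the 216-base stretch, like the one on which the 4-base event rests, was a GC site. GAPDH, the enzyme that oxidises glyceraldehyde 3-phosphate, had the remaining event of this type. Its long form added 92 bases at chr12:6643736-6643827, outside the coding segments. PFKM had the 1 retained intron of the 10 genes, an intron of 89 bases at chr12:48516461-48516549 and likewise outside the coding segments. No alternative 3' splice site event was listed for the 10 genes (0 of 2868). Of all 12254 genes, 12% had an alternative 5' splice site event, 15.4% an alternative 3' splice site event and 4.48% a retained intron, beside 2, 0 and 1 of the 10 genes.

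All 10 genes had skipped exon events, as did 97.6% of the 12254 genes with any event, and all 10 had mutually exclusive exon events, beside 63% of those genes. Skipped exon events numbered 156 of the 113456 in the table, and mutually exclusive exon events 75 of 39869. ENO1, which encodes enolase, led with 84 events, followed by PFKM, the muscle-type phosphofructokinase, with 46 and LDHA, a lactate dehydrogenase subunit, with 26. PFKL and ALDOA, for liver-type phosphofructokinase and aldolase, had 17 and 16. PKM had 13, GAPDH 11, PFKP 9, LDHB 8 and PGK1, phosphoglycerate kinase, 7. In skipped exon events alone ENO1 had 54, more than 99.4% of the 11965 genes in that table, with 67 genes above it. PFKM had 29, more than 94.4% of genes. PKM with 7 events stood near the median gene, which had 6. These are numbers of listed combinations of exons, not of transcripts or reads. GENCODE names 65 pseudogenes after GAPDH, 6 after LDHA, 5 after PKM, 4 after ENO1, 3 after LDHB and 2 each after ALDOA and PGK1, and 0 after the phosphofructokinase genes. Such copies can share reads with the gene they resemble; whether any listed junction rests on shared reads was not tested.

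**Figure D2:**
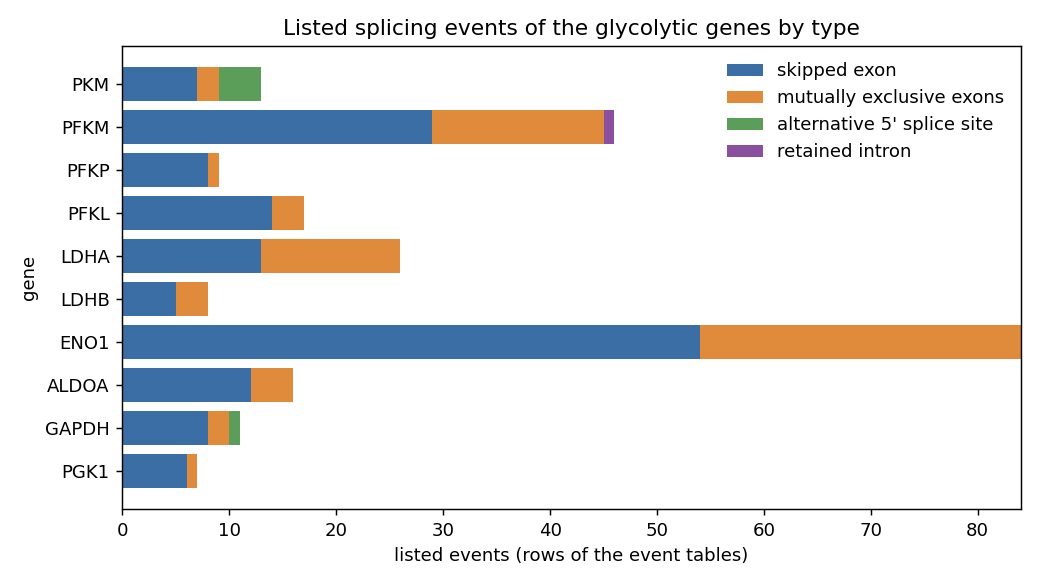
Listed events of each gene (x axis, number of events; colours, event type). ENO1 has 84 events and PGK1 has 7.

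A skipped exon event is defined by the exon and by the junction that leaves it out. The 156 events rested on 73 distinct exons, and all 73 were annotated with the same start and end (100%, beside 99.4% of the 67154 distinct exons of all genes). Of the 116 internal exons of the canonical transcripts, 64 were listed (55.2%), beside 48.3% over all genes with a skipped exon event and a matched transcript. ENO1 had 10 of 10 internal exons listed and LDHA 6 of 6. LDHB had 4 of 6, GAPDH 4 of 7 and PFKL 11 of 20. PFKM had 11 of 21, ALDOA 4 of 8, and PKM and PGK1 4 of 9 each. PFKP, the platelet-type phosphofructokinase, was lowest with 6 of 20. The canonical PKM transcript carries exon 10 and lacks exon 9, so exon 9 is not among its 9 internal exons.

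**Figure D3:**
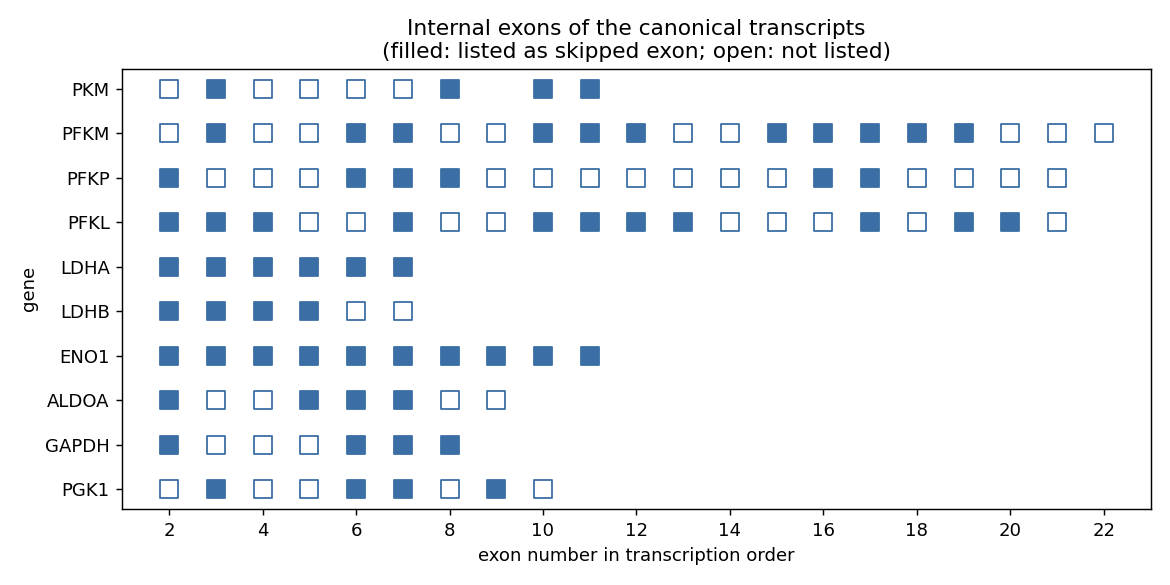
Internal exons of the canonical transcript of each gene by exon number (x axis), filled where listed as a skipped exon. All internal exons of ENO1 and LDHA are filled, and PKM has no square at exon 9 because its canonical transcript lacks it.

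Most skipping junctions were in no annotated transcript. Of 110 distinct skipping junctions, 92 were in no GENCODE transcript of any kind (83.6%), beside 80.9% of the 88907 junctions listed for all genes. In ENO1 26 of 27 were absent, in PFKL 12 of 13 and in PFKM 17 of 21. PFKP had 7 of 7 absent, GAPDH 6 of 6, and LDHB and PGK1 5 of 5 each. PKM and ALDOA were lowest, with 3 of 6 and 5 of 10, and LDHA had 6 of 10. The ALDOA junctions include those of events outside the annotated gene bounds, which 6 of its 12 skipped exon events reach. So do 6 of the 8 skipped exon events of GAPDH, whose junctions themselves lie inside the bounds, and 1 each of PFKL and LDHA. The places of these genes without such events were not tested. Which annotation the authors gave to rMATS is not given in the sources used here, so absence from GENCODE does not by itself show that a junction was found in reads.

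Of the 110 junctions, 98 left out at least 1 numbered exon between exons of the reference order. In PKM exons 9 and 10 were counted as 1 exon, since no annotated transcript holds both: the junction from exon 8 to exon 11 was taken to leave out 1 exon of the pair, and that from exon 7 to exon 10 to leave out exon 8 only. Over all genes, 78326 junctions left out at least 1 exon of the canonical transcript. A single exon was left out by 54 of the 98, and 45 of these were in no GENCODE transcript, beside 77% of such junctions over all genes. More than 1 exon was left out by 44 of the 98, beside 42.3% over all genes, and 43 of the 44 were in no GENCODE transcript, beside 91.1%. The number of bases left out was a multiple of 3 in 46 of the 98, beside 39.9% over all genes. In ENO1 19 of the 27 junctions left out more than 1 exon, and in PFKM 9 of 21. ENO1 exons 1 and 2 were each the start of 6 skipping junctions. The ENO1 junction with the most exons left out joined exon 1 to exon 9 and left out 7 exons with 874 bases. The only ENO1 junction in the annotation joined exon 3 to exon 5. PFKM held the junction with the most exons left out among the 10 genes, from exon 10 to exon 19, which left out 8 exons and 882 bases, a multiple of 3. In LDHA the farthest junction joined exon 3 to exon 8 and left out 4 exons and 590 bases. For PFKP the most was 5 exons, from exon 3 to exon 9.

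**Figure D4:**
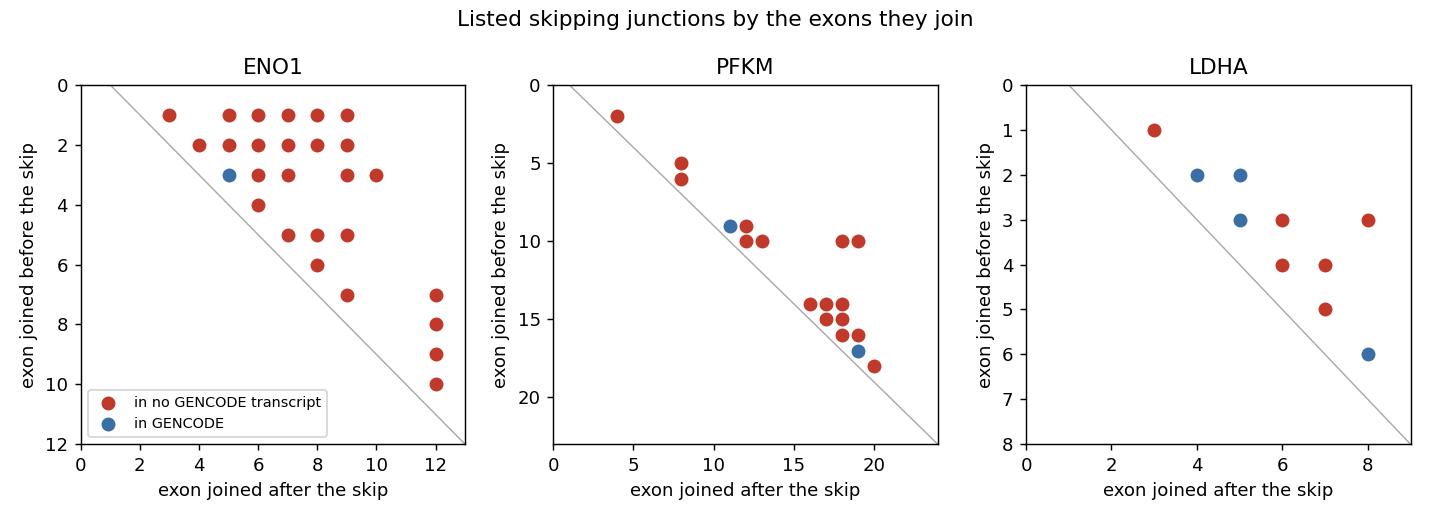
Listed skipping junctions of ENO1, PFKM and LDHA, by the exon before the skip (y axis) and the exon after it (x axis); red, in no GENCODE transcript, blue, in GENCODE. The farther a point is from the grey line of neighbouring exons, the more exons are left out, up to 7 in ENO1, 8 in PFKM and 4 in LDHA.

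Of the 73 listed exons, 30 had a length that is a multiple of 3 (41.1%), beside 38.8% of all listed exons. LDHA had 3 such exons of 6 and LDHB 3 of 4, while GAPDH had 0 of 4. The shortest listed exon was 36 bases long, in ALDOA, and the longest was exon 8 of GAPDH with 413 bases. In PKM the shortest was exon 3 with 92 bases and the longest exon 11 with 182 bases. ENO1 ranged from 59 to 223 bases and PFKL from 64 to 190. PFKM ranged from 45 to 166 bases and PFKP from 45 to 165. LDHA and LDHB had the same range, 118 to 174 bases, and PGK1 went from 115 to 178.

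Mutually exclusive exon events were also compared with the annotated transcripts. In 74 of the 75 events (98.7%) at least 1 annotated transcript held both exons, beside 98.4% of the 39869 events of all genes. The exception was the event of PKM exons 9 and 10. The exons of 49 of the 75 events were neighbours in the reference order, beside 64.5% of the 37658 events of all genes with a matched canonical transcript. The paired exons had equal length in 4 events (5.33%), beside 0.948% over all genes. These were the PKM pair and 3 events that paired exons 4 and 5 of LDHA, each 174 bases long, which 9 annotated transcripts hold together. ENO1 had 30 mutually exclusive exon events, PFKM 16 and LDHA 13.

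The median 5' splice site score of the 73 listed exons was 8.54 and the median 3' score was 8.99, beside 8.07 and 9.21 over all listed exons. The lowest 5' score was 3.35, at exon 3 of LDHA (chr11:18420978-18421095, percentile 3.17), and the lowest 3' score was 1.06, at exon 16 of PFKM (chr12:48535523-48535610, percentile 1.4). Both windows are shown 5' to 3' on the plus strand (GRCh37), as the extremes of the 10 genes, with exon bases in capitals.
5' splice site of LDHA exon 3, beside chr11:18420978-18421095: AAGgttgat
3' splice site of PFKM exon 16, beside chr12:48535523-48535610: cgccatcactgatcaactagGAC
PFKM exon 16 had a high 5' score of 10.96, and the LDHA exon 3 acceptor scored 5.76. Of the 73 listed exons, 2 had a lower 3' score than PKM exon 10.

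The phosphofructokinase genes share an exon order, which allowed their exons to be set side by side. After 1 additional exon at the start of PFKM, 20 internal positions could be paired, and the exon length was equal in all 3 genes at 17 of them. PFKP had 6 of the 20 positions listed, and PFKL and PFKM 11 each. Positions 2 and 17, with exons of 74 and 165 bases, were listed in all 3 genes, and position 21 in none. The other 17 positions were listed in 1 or 2 of the genes. The exon of 45 bases at position 6 was listed in PFKP and PFKM and not in PFKL. LDHA and LDHB had equal exon lengths at 5 of 6 internal positions, and positions 2 to 5 were listed in both. Positions 6 and 7, of 118 and 124 bases, were listed in LDHA only.

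**Figure D5:**
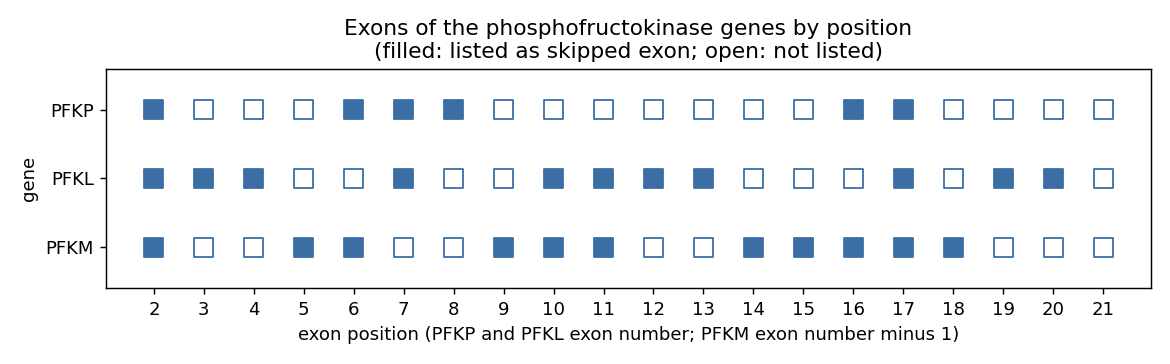
Paired internal exons of PFKP, PFKL and PFKM by position (x axis), filled where listed as a skipped exon. Positions 2 and 17 are filled in all 3 genes and position 21 in none.

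Of 31 other genes of glucose uptake, glycolysis, lactate transport and pyruvate oxidation, 22 had at least 1 listed event and 9 had none. They held 335 events, of which 235 were skipped exon and 94 mutually exclusive exon events. Their internal exons were listed in 111 of 202 cases (55%), near the 55.2% of the 10 genes. Of their 178 skipping junctions, 146 were in no GENCODE transcript (82%), near the 83.6% of the 10 genes.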

How the data were processed

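Polyadenylated RNA from 1 control and 1 amiloride library was sequenced, and the authors aligned the reads (STAR 2.5.1 and builds hg19 and GRCh37 are named in the submitters' processing notes) and listed splicing events with rMATS in 5 deposited tables. Rows were taken by symbol, with their coordinates and the effective length that the authors deposited for either form of an event, which was 125 for the form without the exon in every skipped exon row of the members; the form with the exon exceeded it by the exon length in 156 of 156. Another 30 columns of values per library could not be matched to a library by name and were not used, and neither were 15 columns that hold the authors' p-values, false discovery rates and inclusion level differences. No test was made. The planned levels per condition were therefore not computed.

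Exons and junctions were compared with GENCODE release 44 mapped to GRCh37. Of the 11965 genes with a skipped exon event, 11001 had a matched canonical transcript with an internal exon. Splice sites were scored over 9 bases (3 of the exon, 6 of the intron) and 23 bases (20 of the intron, 3 of the exon), with base frequencies at 300803 and 300208 annotated sites, a pseudocount of 0.5 and equal background frequencies. In 98.9% of listed exons AG and GT flanked the exon. PKM exons are numbered over the gene, with both exons of the pair, which count as 1 exon among those a junction leaves out. The analysis used Python 3.11.15, pandas 2.3.3 and numpy 2.4.6, and its functions were tested on simulated data.

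The members and lists were chosen with earlier results of these data known. Named one by one were PKM events with exon 9 or 10 and every retained intron or alternative splice site event; most other events are given by counts, ranges and extremes. The other PKM events, the LDHA and ENO1 events given singly, the comparison of paralogs and of transcripts that hold both exons, the motif search, the junction spans and neighbouring exons over all genes, the pseudogene counts and the named extremes were added after the tables had been seen.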

Additional observations from a re-analysis of the deposited data

How the results depend on the processing

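Under the alternatives tried, the share of internal exons listed was 48.3% and 55.2%. Junctions absent from the annotation came to 79.5% to 88.2%, and exons with a length that is a multiple of 3 to 40.4% and 43.1%. All stayed within the 95% Wilson interval of the reported share. That interval treats exons and junctions of a gene as independent, and the alternatives largely recount the same rows, so staying inside it shows little about stability. The 48.3% counts exons of all protein-coding transcripts and is no higher than the 48.3% over all genes, which counted canonical transcripts only. The share over all genes with all protein-coding transcripts is not given here. The lowest of the junction values, 79.5%, is without ENO1, an alternative chosen after seeing the data. With all junctions required to carry GT and AG, 155 skipped exon and 74 mutually exclusive exon events were left, and 3 of 5 alternative 5' splice site events, because 2 PKM events use a GC site. With rows taken inside the gene bounds in place of by symbol, also chosen after seeing the data, there were 151, 71 and 4, since 20 rows, among them 8 of GAPDH and 7 of ALDOA, reach outside the annotated bounds and rows under other symbols lie inside them.

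The percentiles of the PKM splice sites moved with the reference. With the base frequencies of the scored windows as background, exon 9 was at 55.3 (5' site) and 59.3 (3' site) and exon 10 at 63.4 and 9.72. Among the 73 listed exons of the 10 genes, exon 9 was at 57.5 and 43.8 and exon 10 at 56.2 and 2.74. A pseudocount of 5 left all 4 percentiles as reported. At the 5' site exon 10 ranked above exon 9 with the other background and below it otherwise.

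No paired analysis was possible because there was 1 library per condition and no value per library was used. Matching by gene identifier was not run, because the identifier column repeats the symbol (0 rows differ). Levels per condition, and their alternatives, were not run. The counts describe what was listed and carry no error from replicates or depth.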

Other observations

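Among the other pathway genes, named here after their values were seen, GPI had 95 listed events, HK1 had 55 and PDK1 had 42. Within ENO1, exon 5 was the skipped exon of 10 events and exon 3 of 9, while exons 10 and 11 had 1 each.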
